A study of Mus musculus with 3 samples.

Results

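The 9 genes described here are neutrophil granule and alarmin genes, S100a8, S100a9, Camp, Ngp, Ltf, Lcn2, Mmp8, Mmp9 and Retnlg, taken as a listed set of columns from both count tables, out of 23860 genes measured in either library. They were read in liver cells captured with the BD Rhapsody system, which counts transcripts per cell as unique molecular identifiers (UMIs). The HFHC pool held liver cells of wild-type (WT) and Chi3l1-/- C57BL/6J mice, both fed a high-fat, high-cholesterol (HFHC) diet, with no genotype given per cell, and the WT library held cells of WT mice. The study gives the diet of the WT library as normal chow, but the sample is titled MCD and its table carries APAP0h in the header, and the table was tied to the sample by elimination. The labels speak of parenchymal cells, whereas the study's methods describe non-parenchymal cells isolated after collagenase perfusion. With 1 library per condition there was no test between conditions, and the effects of diet, of the Chi3l1-/- cells in the pool, of the capture and of the library cannot be told apart.

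Neutrophils make their granule proteins in an order set by their stage of maturation in the bone marrow. Primary granule enzymes come first, proteins of the specific granules such as cathelicidin, neutrophilic granule protein and lactoferrin follow, and gelatinase granule proteins come last, so that transcripts of the first groups are largely gone from the mature cells that circulate. The calcium-binding alarmins S100a8 and S100a9 are cytosolic, pair as calprotectin, and are among the most abundant transcripts of mature neutrophils. In the report Camp, Ngp, Ltf and Lcn2 are the early genes and Mmp8, Mmp9 and Retnlg the late ones.

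Camp, Ngp and Ltf lie within 1 stretch of chromosome 9, chr9:109847379-111042767 (GRCm38), which holds 31 protein-coding genes. S100a8 and S100a9 are neighbours on chromosome 3, separated by 22596 bases. Of the 9 genes, 8 had an upstream window of 250 bases in RefSeq (GRCm38.p6). Those of the 5 genes that differed by at least 2-fold between the libraries in neutrophils are shown as far as they lie before the gene's start in GENCODE, 5′ to 3′ on the strand of the gene, with capitals marking matches to a C/EBP pattern (TTNNGCAA, or TTGCNNAA on the other strand) and a PU.1 pattern (GAGGAA, or TTCCTC on the other strand), factors known from myeloid cells.
Camp, chr9:109849618-109849706, minus strand: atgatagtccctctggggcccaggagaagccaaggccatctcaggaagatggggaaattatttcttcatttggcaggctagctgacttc
Ngp, chr9:110419558-110419746, plus strand: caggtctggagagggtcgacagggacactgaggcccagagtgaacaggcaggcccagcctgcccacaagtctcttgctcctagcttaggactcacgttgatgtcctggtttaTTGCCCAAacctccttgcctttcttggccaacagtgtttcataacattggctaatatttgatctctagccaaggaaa
Ltf, chr9:111019042-111019270, plus strand: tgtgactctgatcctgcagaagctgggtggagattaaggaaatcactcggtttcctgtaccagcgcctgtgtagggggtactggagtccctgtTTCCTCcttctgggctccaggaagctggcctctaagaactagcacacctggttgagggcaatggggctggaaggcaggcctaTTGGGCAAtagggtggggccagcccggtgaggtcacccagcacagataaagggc
Mmp8, chr9:7558179-7558428, plus strand: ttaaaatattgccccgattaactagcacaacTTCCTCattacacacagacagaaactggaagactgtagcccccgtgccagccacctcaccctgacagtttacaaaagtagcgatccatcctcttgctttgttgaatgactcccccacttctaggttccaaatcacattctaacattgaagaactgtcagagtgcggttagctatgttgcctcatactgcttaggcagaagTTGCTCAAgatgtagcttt
Retnlg, chr16:48872358-48872607, plus strand: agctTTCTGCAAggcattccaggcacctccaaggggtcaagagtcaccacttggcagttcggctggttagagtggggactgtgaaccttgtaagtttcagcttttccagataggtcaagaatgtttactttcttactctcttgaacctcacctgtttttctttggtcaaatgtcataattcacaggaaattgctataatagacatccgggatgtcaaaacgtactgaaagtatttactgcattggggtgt
In the whole 250-base window, Ngp held 2 C/EBP matches, 1 of them at 11 bases before the RefSeq start in the stretch not shown, and Camp held no match to either pattern. The C/EBP pattern was in 6 of the 8 windows and in 9.56% of 32851 RefSeq windows of the same length, and the PU.1 pattern in 4 of 8 and in 23.3%. These matches describe letters in a window only.

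The WT library held 30734 cells with 53720863 UMIs and the HFHC pool 21601 cells with 71981673 UMIs. Cells with 200 to 4000 genes and at most 25% mitochondrial UMIs were kept, 23346 in the WT library and 19625 in the pool, with medians of 1322.5 and 1622 UMIs per cell. Cells were clustered with the 9 genes left out of the clustering features, and clusters were named by their markers as neutrophil-like, monocyte-like and so on, shortened to neutrophils, monocytes and so on in the following. Hepatocytes made up 16.9% of the kept cells of the WT library and 45.8% of those of the pool. The libraries shared 756 cell indices, of which none marked a neutrophil in both. Chil1, the gene deleted in part of the pool's mice and itself a specific granule gene, was at 621 CPM (counts per 1000000 UMIs of a class in a library) in WT neutrophils, against 238 CPM in the pool's neutrophils.

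Neutrophils numbered 3141 in the WT library, or 13.5% of its kept cells (95% confidence interval [CI] 13 to 13.9%), and 337 in the pool, or 1.72% (1.54 to 1.91%). All intervals are exact Poisson or binomial ones and cover counting error only. The 14 neutrophil markers used for the name summed to 21067 CPM in WT neutrophils and 18693 CPM in the pool's neutrophils, and none was at 0. The 11 monocyte markers summed to 791 and 650 CPM, the 8 hepatocyte markers to 1345 and 2249 CPM, and the 8 T cell markers to 115 and 61.1 CPM. The part of these other cell types in the levels was not tested. A WT neutrophil had a median of 1009 UMIs and a neutrophil of the pool one of 2112, so that shares of cells with a UMI are not on the same footing. The neutrophils of both libraries lay in 1 cluster after integration, while without it 3109 WT neutrophils and 47 of the pool fell in one cluster and 39 and 299 in another, led by Cxcl2, Ptgs2, Acod1 and Il1b. Such a split was not particular to neutrophils. Kupffer cells had 2234 and 17 cells in one cluster and 4 and 307 in another, and endothelial cells 2467 and 148, and 149 and 570. B cells had a shared cluster of 1340 and 814 cells. The 9 genes together made up 7.31% (7.28 to 7.34%) of all neutrophil UMIs in the WT library and 4.49% (4.44 to 4.54%) in the pool, and neutrophils held 85.8% and 85.0% of all their UMIs in kept cells.

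S100a8 and S100a9 were the most abundant of the 9. S100a8 stood at 25005 CPM (24838 to 25174) in WT neutrophils, against 18722 CPM (18418 to 19031) in the pool's neutrophils, a log2 ratio (pool over WT library) of -0.42. S100a9 stood at 25644 CPM (25474 to 25814) and 17187 CPM (16895 to 17483), a log2 ratio of -0.58. Both genes were found in nearly every neutrophil, S100a8 in 97.9% of WT cells and 97.0% of the pool's, S100a9 in 97.6% and 96.4%. In B cells, which should lack them, S100a9 had a UMI in 10.1% of WT cells (median depth 1304 UMIs) and 1.35% of the pool's (2608.5 UMIs). The median WT neutrophil held 24 UMIs of S100a8, with 12 to 38 in the middle range between quartiles, and the median neutrophil of the pool held 33, with 15 to 58.

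Lcn2, the iron-siderophore carrier lipocalin 2, and Mmp9, gelatinase B, were also lower in the pool by less than 2-fold. Lcn2 was at 1823 CPM (1778 to 1869) in WT neutrophils and at 1256 CPM (1178 to 1338) in the pool's, a log2 ratio of -0.54. Mmp9 was at 2503 CPM (2450 to 2556) and 1769 CPM (1677 to 1866), a log2 ratio of -0.50. The share of neutrophils with a UMI of Mmp9 was alike before depth was matched, at 85.6% and 88.4%, and lower in the pool, at 66.7% and 54.3%, once each cell was thinned to 500 UMIs. For Lcn2 the share was 50.8% and 42.7% unthinned, and 38.6% and 19.9% thinned.

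Mmp8, neutrophil collagenase, and Retnlg, a resistin-like secreted protein of mature neutrophils, were the 2 members that were at least 2-fold lower in the neutrophils of the HFHC pool. Of 4294 genes that reached a total of 100 UMIs over the neutrophils of both libraries, 4.66% were as much lower. Mmp8 fell from 2806 CPM (2750 to 2863) in the WT library to 656 CPM (600.5 to 716) in the pool, a 4.27-fold difference (3.91 to 4.68). Retnlg fell from 15152 CPM (15022 to 15284) to 3714 CPM (3579 to 3853), a 4.08-fold difference (3.93 to 4.24). Both were also found in fewer cells of the pool, although its cells were deeper. Mmp8 had a UMI in 65.9% of WT neutrophils and 42.4% of the pool's, and Retnlg in 86.2% and 74.5%. After thinning, the shares were 51.8% and 20.8% for Mmp8 and 80.0% and 55.2% for Retnlg.

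Camp, Ngp and Ltf encode cathelicidin, neutrophilic granule protein and lactoferrin. They were the 3 members that were at least 2-fold higher in the pool, where 8.15% of the genes were as much higher. Camp and Ltf reached the minimum of UMIs through the pool, with 113 and 253 UMIs there against 38 and 79 in WT neutrophils. The number of 3 members beside 8.15% is thus no support for a direction. Ngp had enough UMIs in each library, 437 in WT neutrophils and 858 in the pool's. Camp stood at 11.2 CPM (7.91 to 15.3) in the WT library and 147 CPM (121 to 177) in the pool, a log2 ratio of 3.69. Ngp stood at 129 CPM (117 to 141) and 1115 CPM (1042 to 1193), a log2 ratio of 3.12. Ltf stood at 23.2 CPM (18.4 to 29.0) and 329 CPM (290 to 372), a log2 ratio of 3.81. The cells behind these sums were few. Camp had a UMI in 5 WT neutrophils and 4 of the pool, Ltf in 6 and 8, and Ngp in 127 and 3. The median log2 ratio over the 9 genes was -0.50, beside 0.02 over all 4294 genes.

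**Figure D1:**
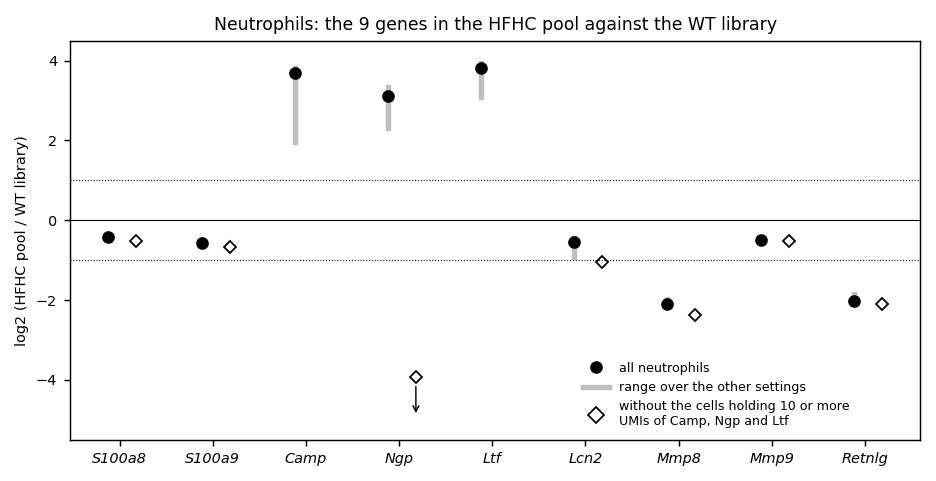
Log2 ratio in neutrophils (HFHC pool over WT library, y axis) for each of the 9 genes, with all neutrophils (filled circles), the range over the other settings that gave a value (grey bars), and without the 3 neutrophils per library that held 10 or more UMIs of Camp, Ngp and Ltf (open diamonds), with dotted lines at 2-fold. Retnlg and Mmp8 lie near -2 in each case, while Ngp turns from a log2 ratio of 3.12 to a lower level in the pool (arrow). With its 0 UMIs set to 3 it is 15.2-fold lower, which is no lower bound. Camp and Ltf have too few UMIs left for a ratio.

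The 3 specific granule transcripts were concentrated in 3 neutrophils of each library. These cells, which each held 10 or more UMIs of Camp, Ngp and Ltf together, were singled out after their values were seen. In the pool they held 112 of 113 Camp UMIs, 858 of 858 Ngp UMIs and 246 of 253 Ltf UMIs. In the WT library they held 35 of 38, 232 of 437 and 75 of 79. A rise in the class sum was thus carried by 3 of 337 cells against 3 of 3141.

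The cells of the pool with these transcripts also held late genes in graded amounts. The first pool cell held 398 Ngp, 63 Camp and 114 Ltf UMIs with 108 of Lcn2, but 2 of Mmp8 and 7 of Retnlg, and it was the only 1 of the 3 with Fcnb, ficolin B of early granules, at 4 UMIs. The second held 291 Ngp, 18 Camp and 77 Ltf UMIs with 25 of Mmp8 and 44 of Retnlg. The third held 169 Ngp, 31 Camp and 55 Ltf UMIs with 75 of Mmp8 and 160 of Retnlg. The cells are numbered by falling UMIs of Camp, Ngp and Ltf together, so that the fall of Ngp follows largely from the numbering. Going from the first to the third, Mmp8 and Retnlg were higher, while Camp and Lcn2 had no such order. In the WT cells Retnlg was likewise higher where Ngp was lower, while Mmp8 had no such order. One held 155 Ngp, 22 Camp and 49 Ltf UMIs with 37 of Mmp8 and 17 of Retnlg, another held 61, 13 and 26 with 48 of Mmp8 and 98 of Retnlg, and the third held 16 Ngp UMIs, no Camp or Ltf, 25 of Mmp8 and 149 of Retnlg. These are 6 cells, and no test was made over them.

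**Figure D2:**
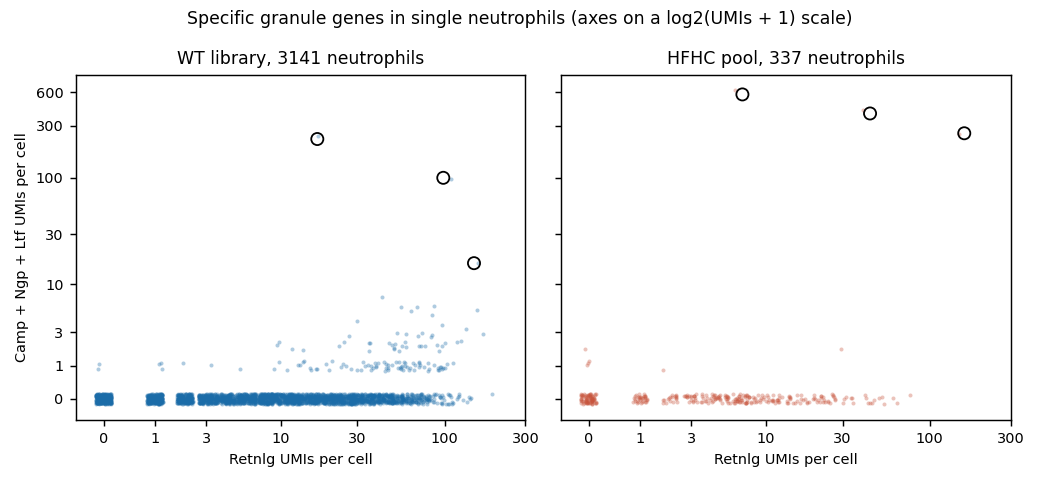
UMIs of Camp, Ngp and Ltf together (y axis) against UMIs of Retnlg (x axis) in every neutrophil of the WT library and the HFHC pool, both on a log2(UMIs + 1) scale with a small random offset, rings marking cells with 10 or more UMIs of the 3 genes. A group of 3 ringed cells stands above all others in each library, and low counts of 1 to 7 occur mostly at high Retnlg in the WT library.

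A further cell with these transcripts fell outside the neutrophils in each library. In the WT library it grouped with plasma cells and held 5830 UMIs with 320 of Ngp, 89 of Camp, 50 of Ltf and 103 of Lcn2. No UMI of Mmp8, Mmp9, the plasma cell gene Jchain or the B cell gene Cd79a was found in it. It held 1 Retnlg UMI, 11 UMIs of Top2a and 6 of Mki67, which mark dividing cells, and 119 of Chil3. This single cell held all 320 Ngp UMIs of the WT plasma cells, which as a class then stood at 386 CPM of Ngp, above WT neutrophils. In the pool a cell of 1004 UMIs among hepatocytes held 14 Ngp and 6 Ltf UMIs. Of the 8 such cells, 1 carried a cell index that occurs in both libraries.

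Without the 3 neutrophils per library the early genes separated. Lcn2 lost 32.1% of its UMIs in the pool and 1.61% in the WT library, and stood at 871 CPM (805 to 940) and 1798 CPM (1753 to 1843). Camp was left with 3 UMIs in 3138 WT cells and 1 UMI in 334 cells of the pool. Ltf was left with 4 and 7 UMIs. Ngp remained in the WT library at 60.4 CPM (52.4 to 69.3), with 205 UMIs in 124 cells, or 3.95% (3.30 to 4.69%), and never more than 7 in a cell. In the pool it had a UMI in 0 of 334 cells, which allows a share of cells with a UMI of up to 0.898% (3 of 334) and does not limit the share of cells that express the gene. Its level was 15.2-fold higher in WT with 3 UMIs over the class, or 3.98 CPM, taken for the pool. This is no lower bound, as the exact upper limit of the pool was 4.90 CPM. The direction for Ngp in neutrophils thus depended on 3 cells of the pool. Without the 3 cells of each library Mmp8, Retnlg and Lcn2 were at least 2-fold lower in the pool. So was Ngp, but the cells taken out held all its UMIs in the pool's neutrophils, and it had enough UMIs through the WT library alone. The number of 4 members in place of 2 is thus no support for a direction, and the share of all genes was not counted in this setting.

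The 124 WT neutrophils with 1 to 7 Ngp UMIs stood apart from the 3014 without by their other members. They were somewhat deeper, with a median of 1293.5 against 1001 UMIs. Retnlg was at 38763 CPM in them and at 13857 CPM in the rest, Mmp8 at 7260 and 2543 CPM, and Lcn2 at 5303 and 1612 CPM. The alarmins differed less, S100a8 at 37011 and 24302 CPM and S100a9 at 41318 and 24750 CPM, and Mmp9 least, at 3117 and 2464 CPM. Lyz2, lysozyme, was at 15388 and 7272 CPM. The cytokine gene Il1b was lower in the cells with Ngp, at 1389 and 3212 CPM, and so was the receptor gene Cxcr4, which is known to rise as neutrophils age, at 1025 and 1815 CPM. Of all 127 WT neutrophils with Ngp, 125 held Retnlg and 120 Mmp8, but 5 held Camp and 3 Ltf.

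The early genes as a share of the 7 granule genes, Camp, Ngp, Ltf and Lcn2 among them and Mmp8, Mmp9 and Retnlg, came to 8.85% (8.65 to 9.05%) in WT neutrophils and 31.7% (30.6 to 32.8%) in those of the pool. With Lcn2 left out it was 0.790% and 20.6%. Without the 3 cells per library it was 8.36% and 13.2%. Without these cells Lcn2 itself was lower in the pool, at a log2 ratio of -1.04, as were Mmp8 at -2.37, Retnlg at -2.10 and Mmp9 at -0.52, so that the higher share there went with the lower late genes. The alarmins took 69.3% of the UMIs of the 9 genes in the WT library and 80.0% in the pool.

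Within each library the late genes and the alarmins were graded together from cell to cell. Each neutrophil was thinned to 500 UMIs and cells were grouped by their Retnlg UMIs, with 627, 859, 796 and 851 WT cells and 151, 123, 52 and 11 cells of the pool at 0, 1 to 3, 4 to 9 and 10 or more. From the lowest to the highest group, mean S100a8 went from 6.06 over 9.47 and 13.9 to 18.1 UMIs in the WT library, and from 6.09 over 9.72 and 16.0 to 22.8 in the pool. S100a9 went from 5.81 to 19.1 and from 5.18 to 22.0. At a given Retnlg level the alarmins of the libraries lay close together, and the pool had fewer cells at high Retnlg. The share of neutrophils with no Retnlg UMI after thinning was 20.01% in the WT library and 44.8% in the pool.

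Lcn2 and Mmp9 followed the same order, Lcn2 from 0.321 to 1.52 UMIs in the WT library and from 0.265 to 1.91 in the pool, Mmp9 from 0.922 to 1.56 and from 0.722 to 1.55. Mmp8 differed between the libraries also at the same Retnlg level. It had means of 0.365, 0.736, 1.30 and 2.45 UMIs in the WT library and of 0.0861, 0.415, 0.385 and 1.18 in the pool. So had Lyz2, with 6.70 against 2.09 UMIs in the highest group. Il1b ran the other way in the WT library, from 2.23 UMIs at no Retnlg down to 0.991 at 10 or more, and was flat and higher in the pool, between 7.46 and 7.79. The highest group of the pool rests on 11 cells, and 1 of them was among the 3 with many Camp, Ngp and Ltf UMIs. Without that cell the means in the group were 1.2 for Lcn2 in place of 1.91, 0.60 for Mmp8 in place of 1.18 and 19.9 for S100a8 in place of 22.8.

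**Figure D3:**
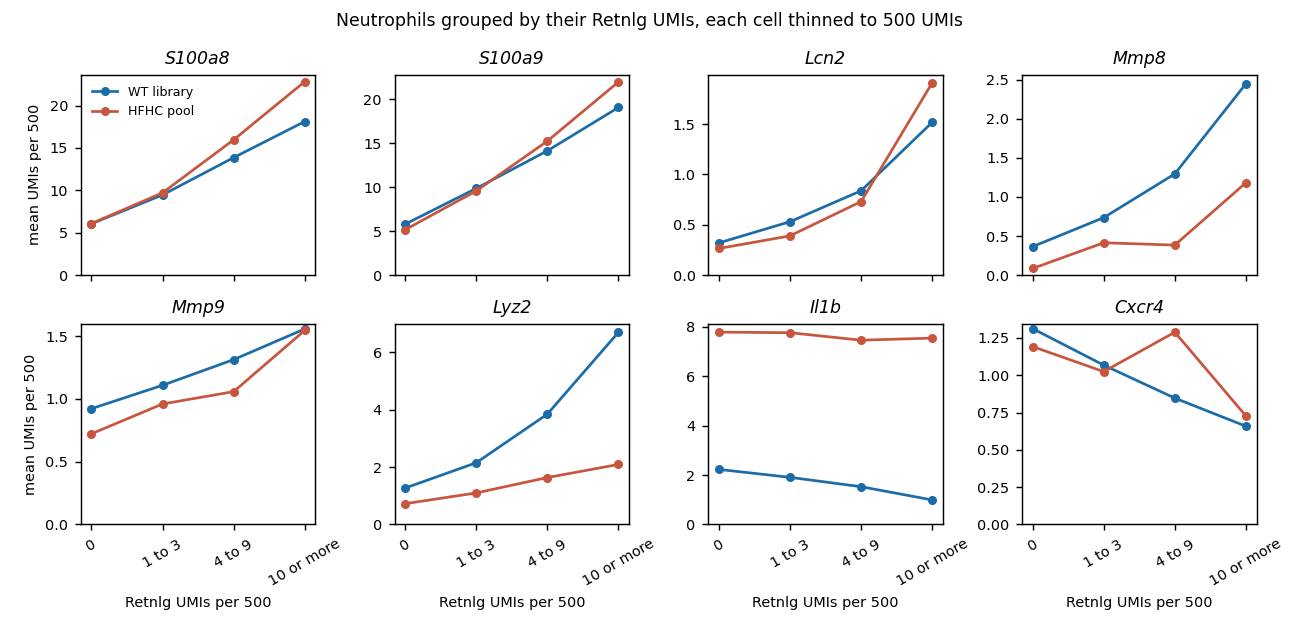
Mean UMIs per neutrophil after thinning to 500 UMIs (y axes, from 0) for 8 genes, by the cell's Retnlg UMIs (x axes) in the WT library (blue) and the HFHC pool (red). S100a8, S100a9, Lcn2 and Mmp9 climb with Retnlg in both libraries, Mmp8 and Lyz2 are lower in the pool in every group, and Il1b falls from 2.23 to 0.991 in the WT library but stays above 7 in the pool.

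As a description across cells, Spearman's rho with Retnlg over 3133 WT neutrophils and 337 of the pool was 0.64 and 0.53 for S100a9, 0.62 and 0.52 for S100a8, 0.48 and 0.31 for Mmp8, 0.33 and 0.16 for Lcn2, and 0.19 and 0.16 for Mmp9. The cells of a library share its capture and sequencing, and the thinned counts are small. S100a8 and S100a9 stood at 0.75 and 0.82 with each other, and pairs of members without Retnlg or S100a9 were not computed. Il1b was at -0.27 and -0.02.

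The other neutrophil genes, counted in lists written by hand with earlier results of these data known, placed the members among their relatives. For all list counts, 4.66% of the 4294 genes tested in neutrophils were at least 2-fold lower in the pool and 8.15% higher. Of 6 primary granule genes none reached 100 UMIs. Myeloperoxidase (Mpo) had 1 UMI in WT neutrophils and 0 in the pool's, neutrophil elastase (Elane) 2 and 0, and proteinase 3 (Prtn3) 6 and 4. Cathepsin G (Ctsg) and Ms4a3 had 0 in both. Serpinb1a, a serpin that inhibits neutrophil proteases, had the most of the list, 41 and 21 UMIs, or 12.1 and 27.3 CPM. Of 15 other specific and gelatinase granule genes, 12 reached 100 UMIs, 3 were at least 2-fold lower in the pool and 1 was higher, with a median log2 ratio of -0.40. The lower ones were Lyz2 at -1.74, the metalloprotease gene Adam8 at -1.59 and Chil1 at -1.38. The higher one was Chil3, a chitinase-like protein, at 3.12, with 119 UMIs in the pool of which the 3 cells held 84, 22 and 10.

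All 13 genes of circulating and activated neutrophils reached 100 UMIs, with a median of 2.25. In the pool 9 were at least 2-fold higher and none was lower, beside 8.15% and 4.66% of all genes tested. The higher ones include cytokine and chemokine genes, Tnf at 4.39, Cxcl2 at 3.94, Ccl3 at 3.01 and Il1b at 2.25, the cyclooxygenase gene Ptgs2 at 3.17 and the checkpoint ligand gene Cd274 at 3.57. The receptor genes Cxcr2 and Csf3r, at -0.65 and 0.40, were within 2-fold. Of 10 cytosolic and late abundant genes 7 reached 100 UMIs, and 2 were lower, the stefin gene Stfa1 at -2.57 and Wfdc21 at -1.03. Of 5 other S100 genes 4 reached 100 UMIs, and 1, S100a11, was lower at -1.14.

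Among 7 precursor and cycling genes 3 reached 100 UMIs and 1 was higher, Pcna, at 1.52 from 79 and 51 UMIs. Of 7 regulators 5 were tested in this way and 1, Cebpd, was lower at -1.16, while Spi1, which encodes PU.1, was at -0.25. The Toll-like receptor gene Tlr4, a receptor of the alarmins, was at 0.29, the only 1 of 4 receptor genes with 100 UMIs. Timp2, a metalloproteinase inhibitor, was the only 1 of 3 inhibitor genes with 100 UMIs and was lower at -1.20.

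The genes most like each member were sought by Pearson's r of log2(CPM + 1) over 22 profiles of 11 cell classes in both libraries, among 1355 genes with at least 100 UMIs in the neutrophils of each library. As a description, S100a8 and S100a9 were most like each other (0.995), and Retnlg was most like S100a9 (0.981). Camp and Ltf were most like Ngp (0.981 and 0.978), and could not themselves be candidates at their low counts. These values rest on few cells, the 3 neutrophils of each library and the 1 such cell among WT plasma cells. Mmp8 was most like the lectin receptor gene Clec4d (0.972), ahead of Slfn4 and Retnlg. Among the candidates, Lcn2 and Ngp were both most like Amer2 (0.938 and 0.835). The value for Ngp was the lowest best match of the 9 only because Camp and Ltf, at 0.981 and 0.978 with it, were not candidates. For Mmp9 the best match was Stat5b at 0.890, with none of the other members among its 3.

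**Figure D4:**
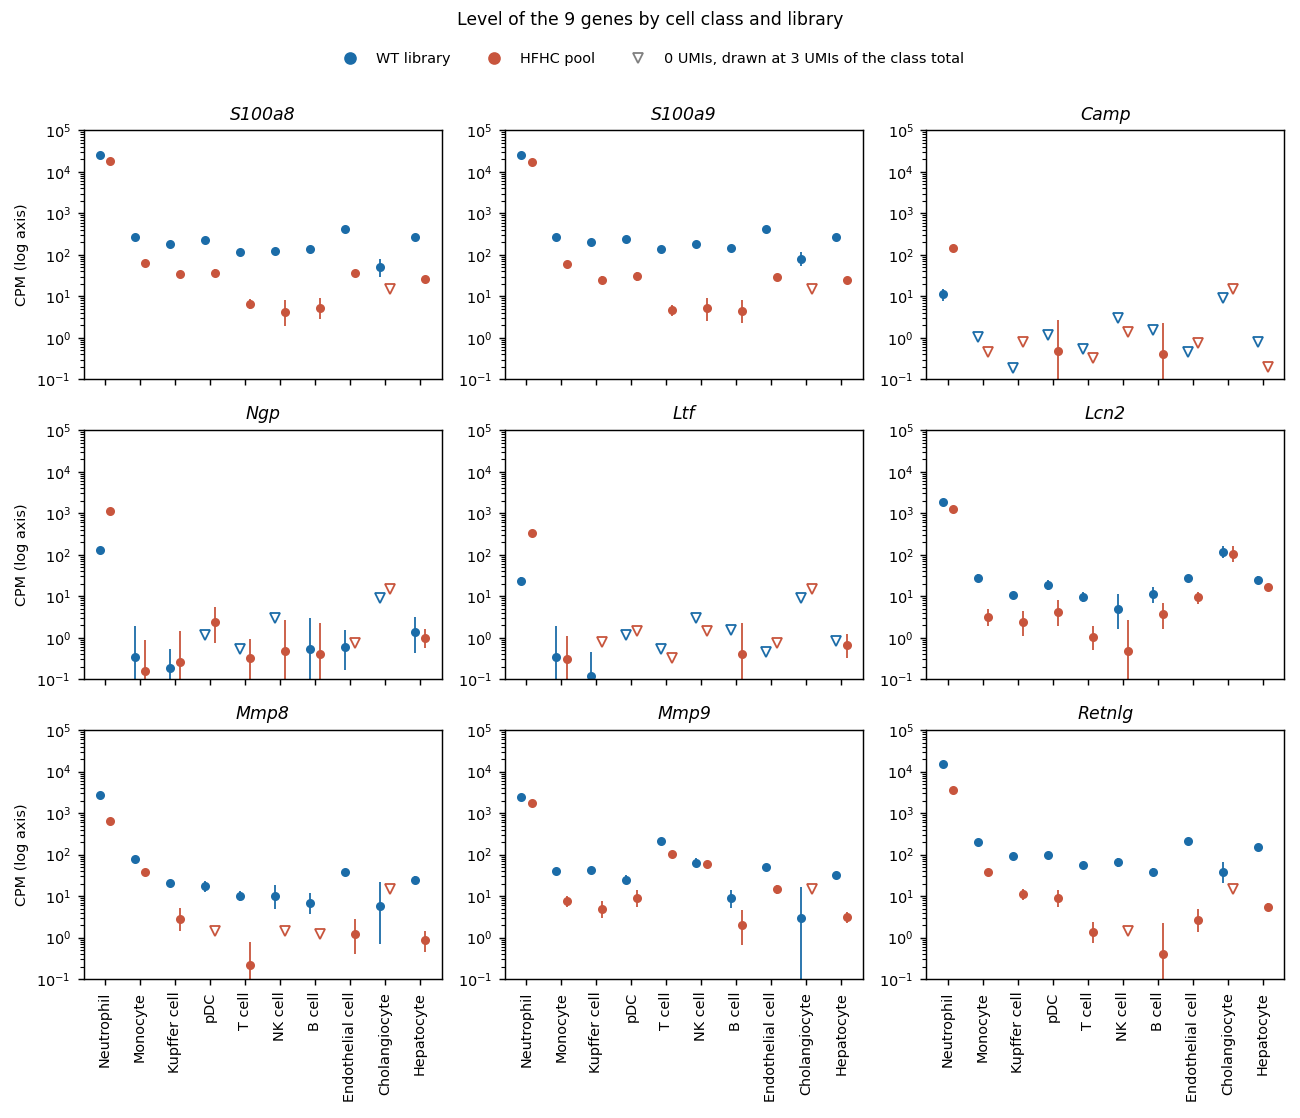
Level of each of the 9 genes in CPM (y axes, log scale) in 10 cell classes of the WT library (blue) and the HFHC pool (red), with exact Poisson 95% intervals as bars and open triangles at 3 UMIs where none was counted. Of the classes shown neutrophils are highest for every gene, Mmp9 is next highest in T cells, Lcn2 in cholangiocytes, and blue points lie above red ones outside neutrophils for S100a8, S100a9 and Retnlg.

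Monocytes held the members at a low level that came mostly from few cells. Summed over the 9 genes, 773 WT monocytes had 1.23% (1.18 to 1.27%) of the neutrophil level and 945 monocytes of the pool had 0.471% (0.446 to 0.497%). S100a8 was at 274 CPM (255 to 294) in WT monocytes and 64.6 CPM (58.5 to 71.1) in the pool's, 91.3-fold and 290-fold below neutrophils. Retnlg was at 206 CPM and 37.5 CPM, 73.4-fold and 99.1-fold below. No Camp UMI was found in monocytes of either library. The class joined 2 clusters with unlike leading genes. One was led by Chil3, F13a1 and Fn1. The other, of 422 WT cells and 578 of the pool, was led by Gpnmb, Ly6i and Cd209a and held Mgl2, H2-Eb1 and Itgax, known from dendritic cells and macrophages, among its top 10 genes beside the monocyte genes Cx3cr1 and Ccr2. The summed level was 1.87% and 1.04% of neutrophils in the first cluster and 0.788% and 0.182% in the second.

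In monocytes 2.74% of the genes tested were at least 2-fold lower in the pool. The 5 members with enough UMIs stood at log2 ratios of -2.08 for S100a8, -2.14 for S100a9, -2.40 for Mmp9, -2.46 for Retnlg and -1.09 for Mmp8, all past this limit. In the cluster led by Chil3, which made up 351 of 773 WT monocytes and 367 of 945 of the pool, Mmp8 stood at -0.66 and was within 2-fold. The alarmin UMIs behind these values were unevenly spread. Of 773 WT monocytes, 22 held 10 or more alarmin UMIs and together 1372 of 1578, while 611 held none. Of 945 monocytes of the pool, 7 held 755 of 804, and 896 held none. With classes taken from each cell's own marker UMIs, 2 of 3 members with enough UMIs in place of 5 of 5 were at least 2-fold lower, and the summed level was 0.355% and 0.223%. Without the monocytes that held a UMI of Csf3r, Cxcr2, Il1r2, Ly6g or Trem1 it was 0.213% and 0.0743%. Of the monocytes with no alarmin UMI, 178 of 611 in the WT library and 468 of 896 in the pool held such a UMI. This step thus also took out many monocytes that held no alarmin UMI.

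Mmp8 was the exception, with a level in monocytes that did not go with the alarmins. It was found in a cluster of 351 WT cells and 367 of the pool led by Chil3, F13a1 and Fn1, at 157 CPM (136 to 182) and 99.8 CPM (86.9 to 114). In the cells of that cluster with no alarmin UMI it stayed at 112 CPM (91.5 to 136) in 19.2% of cells, and at 98.7 CPM (85.4 to 113) in 24.1%. Retnlg in these same cells was at 18.9 CPM in the WT library, beside 18.5 CPM in B cells with no alarmin UMI, and had 0 UMIs in the pool. In the other monocyte cluster, led by Gpnmb and Ly6i, cells with no alarmin UMI had Mmp8 at 10.7 and 4.73 CPM. B cells with no alarmin UMI had it at 1.91 CPM in the WT library and in 0 of 796 cells of the pool, at median depths of 1285.5 and 2606.5 UMIs beside 3059 and 5783 in the monocytes.

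Lymphocytes and endothelial cells are not known as sources of most of these transcripts, and the levels there were summed for each class. Summed over the 9 genes, B cells, T cells and endothelial cells together held 1.1% (1.08 to 1.12%) of the neutrophil level in the WT library and 0.213% (0.202 to 0.224%) in the pool. By class it was 0.481% and 0.0378% in B cells, 0.741% and 0.261% in T cells, and 1.59% and 0.209% in endothelial cells. Mmp9 gave 1190 of 3075 UMIs of these sums in WT T cells and 964 of 1097 in those of the pool. With Mmp9 left out, a choice made after seeing the data, the 3 classes together stood at 0.983% (0.964 to 1.003%) of the neutrophil level in the WT library and 0.0718% (0.0656 to 0.0785%) in the pool, and T cells at 0.470% and 0.0330%. The alarmins alone stood at 0.565% and 0.0270% of their neutrophil level in B cells, 0.507% and 0.0313% in T cells, and 1.64% and 0.184% in endothelial cells. Each of these levels was higher in the WT library, in which neutrophils were 13.5% of the cells, than in the pool, in which they were 1.72%. Free RNA and 2 cells captured together were not told apart for each UMI. Clusters with markers of 2 leukocyte types had been left out. Among them were a B cell cluster with neutrophil markers (42 WT cells) and a neutrophil cluster with T cell markers (86 WT cells). The clusters left out held 3.29% of the S100a8 UMIs in the kept cells of the WT library. Endothelial cells were not subject to this rule, so the classes are not on the same footing.

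In B cells S100a8 was at 137 CPM (121 to 155) in the WT library and 5.25 CPM (2.79 to 8.97) in the pool, a 26.1-fold difference (15 to 49.7), and S100a9 at 149 and 4.44 CPM, a 33.6-fold difference (18.5 to 68.0). These 2 members were the only ones to reach 100 UMIs in B cells, and they reached it through the WT library, so that their number says nothing of the direction. Of all genes tested 2.17% were at least 2-fold lower in the B cells of the pool, 3.15% in T cells and 5.0% in endothelial cells. In T cells S100a8 stood at a log2 ratio of -4.14 and Retnlg at -5.22, and in endothelial cells at -3.49 and -6.20, again with most UMIs from the WT library. Mmp9 in T cells stood at -1.02, but at 0.33 and 0.45 within the 2 largest T cell clusters, the latter with an interval of the ratio (0.857 to 2.50) that includes no difference. Without the called doublets 2 of 4 members with enough UMIs in endothelial cells were at least 2-fold lower, but that step took WT cells alone, from 2684 to 2235, and none of the 658 of the pool. In neutrophils themselves S100a8 differed by 1.34-fold. S100a8 stood at a log2 ratio of -2.40 in Kupffer cells, -2.60 in plasmacytoid dendritic cells and -3.38 in hepatocytes, whose largest cluster in the WT library held 2902 WT cells and 817 of the pool, and in the pool 75 and 2324.

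The alarmin UMIs outside neutrophils had 2 forms in the WT library. A low number of UMIs was spread over many cells, and a few cells held 10 or more. Of the WT cells 15.9% of B cells, 17.6% of T cells, 20.6% of endothelial cells and 32.2% of Kupffer cells held any S100a8 or S100a9 UMI, and in the pool 2.45%, 3.18%, 3.80% and 7.33%. Among B, T and endothelial cells of the WT library, 104 cells held 10 or more alarmin UMIs, and these held 5669 of the 7411 UMIs. Of the 104, 102 also held a UMI of Csf3r, Cxcr2, Il1r2, Ly6g or Trem1, other neutrophil genes, and 97 were called doublets by Scrublet, which finds barcodes that resemble sums of 2 cells. Scrublet was run with the members in its counts, so its calls are not independent of the alarmin UMIs. Of the 5651 with no alarmin UMI, 4.46% held such a gene and 9.79% were called doublets. In the pool 3 of these cells held 10 or more, each with another neutrophil gene, and together 231 of the 397 alarmin UMIs. They were endothelial cells, of which Scrublet called 0 of 658 in the pool, so that its calls say nothing of them.

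Mixed clusters had been left out between leukocyte types only. Of B, T and endothelial cells in the WT library, endothelial cells then had the most with 10 or more alarmin UMIs. Of these endothelial cells, 69 lay in 1 of the 2 endothelial clusters. There they held 91.6% of the alarmin UMIs, and 66 were called doublets. In that cluster 253 of 1089 WT cells with no alarmin UMI were also called. Without the called doublets the summed level in B, T and endothelial cells of the WT library was 0.388% of the neutrophil level in place of 1.1%. In B cells 8 of 1343 WT cells held 10 or more alarmin UMIs and 189 held 1 or 2. All 8 and 8 of the 189 were called doublets, which left 181 of 1240 cells with 1 or 2 and 14 with 3 to 9.

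The ratio of Retnlg to the alarmins was compared between the classes. The intervals of these ratios take the alarmin UMIs as fixed, so they leave out the counting error of the alarmins and are too narrow. For every 100 alarmin UMIs, WT neutrophils held 29.9 Retnlg UMIs, endothelial cells 26.1, hepatocytes 28.0, Kupffer cells 24.5, T cells 21.6 and B cells 13.4. In the pool, neutrophils held 10.3, hepatocytes 10.7, T cells 12.4 and Kupffer cells 19.1 (13.8 to 25.7). Endothelial cells held 4.10 (2.05 to 7.34), and B cells held 4.17 from 1 UMI (0.105 to 23.2). The ratios of the pool rest on few cells. In Kupffer cells 7 cells held 198 of 225 alarmin and 41 of 43 Retnlg UMIs, in endothelial cells 3 held 231 of 268 and 8 of 11, and in hepatocytes 5 held 586 of 763 and 59 of 82. Retnlg was thus lower against the alarmins in the pool than in the WT library in each of these classes, as it was in neutrophils, though in Kupffer cells, T cells and B cells the intervals overlap. In the monocyte cluster led by Chil3 the order was the other way, at 32.9 (29.4 to 36.7) in the WT library and 42.8 (37.4 to 48.8) in the pool, where 5 of 367 cells held 507 of 521 alarmin UMIs and all 223 Retnlg UMIs. The WT interval held the neutrophil value in hepatocytes (25.8 to 30.4), while in endothelial cells, Kupffer cells, T cells and B cells it lay below. Other members had other ratios in the pool. Lcn2 was at 3.50 for every 100 alarmin UMIs in neutrophils, at 32.5 (28.6 to 36.8) in hepatocytes, 14.2 (10.03 to 19.5) in endothelial cells and 37.5 (17.1 to 71.2) in B cells, and Mmp9 at 4.93 in neutrophils and 22.0 (16.8 to 28.4) in endothelial cells.

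**Figure D5:**
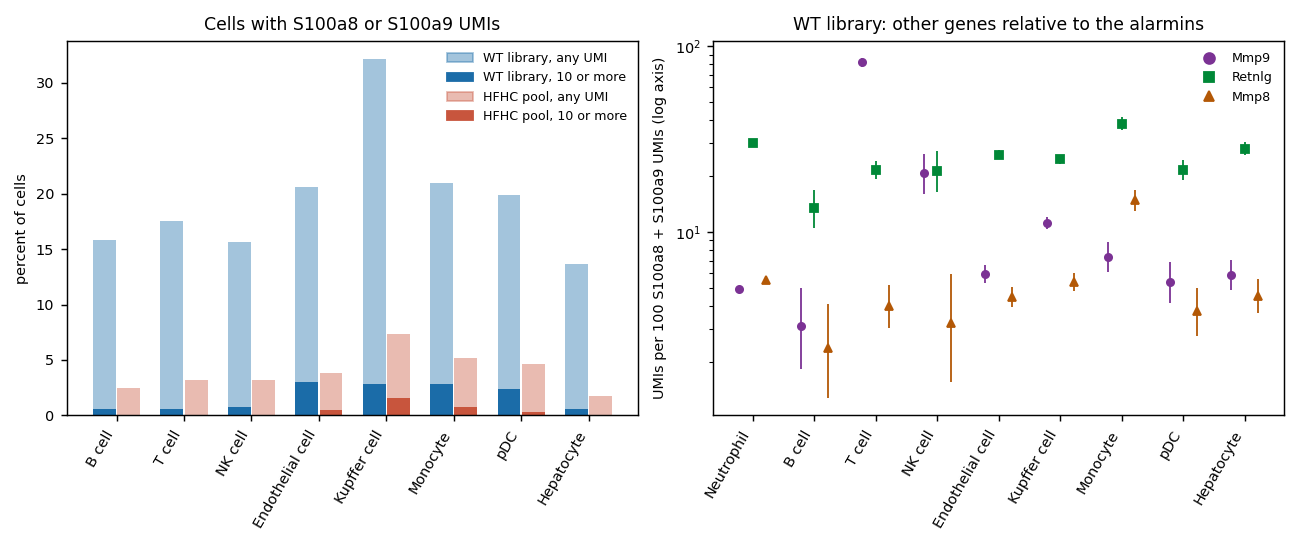
Left, percent of cells of 8 classes with any S100a8 or S100a9 UMI (pale) and with 10 or more (dark) in the WT library (blue) and the HFHC pool (red). Right, UMIs of Mmp9, Retnlg and Mmp8 for every 100 S100a8 and S100a9 UMIs in WT cells (log axis, bars are exact Poisson 95% intervals with the S100a8 and S100a9 UMIs taken as fixed). Retnlg stays between 13.4 and 38.1 in all classes shown, while Mmp9 reaches 81.7 in T cells beside 4.94 in neutrophils.

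Mmp9 in T cells was far from the neutrophil ratio. For every 100 alarmin UMIs T cells held 81.7 Mmp9 UMIs in the WT library and 918 in the pool, against 4.94 and 4.93 in neutrophils. The transcripts were in a T cell cluster led by Cxcr6, Tcrg-C2 and Tcrg-C1, the latter gamma chain genes of the T cell receptor, at 281 CPM in 32.3% of WT cells and 352 CPM in 47.4% of the pool's. In B cells Mmp9 was at 8.92 CPM in 1.12% of cells and 2.02 CPM in 0.368%, 31.5-fold (19.6 to 54.3) and 175-fold (74.5 to 539) lower. In the T cells of that cluster with no alarmin UMI it was still at 277 CPM (260 to 296) and 351 CPM (328 to 376). T cells taken as a whole had Mmp9 at 210 CPM in the WT library and 103 CPM in the pool, the opposite order to the cluster itself, which made up 2152 of 2898 WT T cells and 698 of 2581 of the pool.

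An NK cell cluster held Mmp9 at 83.1 CPM (63.1 to 107) in 9.23% of WT cells and at 111 CPM (92.6 to 133) in 18% of the pool's. Lcn2 was also found in cholangiocytes, the cells of the bile duct, at 119 CPM (84.7 to 161) in 79 WT cells and 106 CPM (65.9 to 163) in 27 cells of the pool. Their S100a8 was at 50.4 CPM and 0 UMIs, and their Camp, Ngp and Ltf at 0 UMIs. Lcn2 had a UMI in 32.9% and 37.0% of cholangiocytes, with median depths of 4126 and 7504 UMIs, and in 1.12% and 0.858% of B cells. In the pool it was also at 52.7 CPM (42.9 to 64.1) in cells with no alarmin UMI of 1 hepatocyte cluster, where WT cells had it at 5.16 CPM (2.66 to 9.01). That was the only hepatocyte cluster looked at in this way. Over all hepatocytes, with those that held alarmin UMIs counted, Lcn2 was at 25.2 CPM in the WT library and 16.5 CPM in the pool. For every 100 alarmin UMIs, WT hepatocytes held 4.63 Lcn2 UMIs, beside 3.60 in WT neutrophils. Those of the pool held 32.5, beside 3.50 in its neutrophils. The 2 comparisons are thus not alike, and the part of neutrophil RNA in them was not tested.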

How the data were processed

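The counts are those deposited by the authors, molecules per cell and gene from the BD Rhapsody WTA pipeline 1.10.1 (GRCm38, GENCODE M19, V1 beads, per the file headers) after the RSEC correction of UMIs. The sample-tag library of the HFHC pool was not analysed here, so genotypes were not assigned.

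Cells with fewer than 200 or more than 4000 genes or over 25% mitochondrial UMIs were removed. Both libraries were integrated in Seurat 5.3.0 (SCTransform 0.4.2, RPCA, 4000 features without the 9 genes, 30 components, 20 neighbours, resolution 0.8, seed 42; R 4.3.3). Clusters were named from marker lists that hold none of the 9 genes. A mixture of markers, judged between leukocyte types only, left out 3 clusters with 161 WT and 44 pool cells. Another 2 clusters with 3132 and 3560 cells stayed unnamed. Scrublet (scanpy 1.11.5) called 1897 WT cells (8.13%) and 382 pool cells (1.95%) doublets, which were kept and left out in an alternative. The shared cell indices are bead barcodes, and 507 of them were kept in both libraries.

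UMIs were summed per class and library and scaled to CPM (counts per 1000000 UMIs of the class total). Log2 ratios had 1 UMI added, over genes that reached a total of 100 UMIs across the libraries, and a 2-fold difference (log2 of 1) stood in for a test. Intervals are exact at 95%, and 0 counts were set to 3 as a floor. Amplified molecules of 1 library are not independent samples, so intervals say nothing of the spread between mice. The ratio step was checked on simulated counts. The named genes are the 9 members, fixed lists of other neutrophil genes, and for each member the 3 genes most like it. 1 gene of the lists is not reported here. The members and lists were chosen with earlier results of these data known. Of the alternatives, 4 were chosen after seeing the data: mixed clusters kept, cells with 10 or more UMIs of Camp, Ngp and Ltf left out, Mmp9 left out of the summed levels, and Lcn2 left out of the early genes. The upstream windows are from RefSeq (GRCm38.p6), with none for Mmp9.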

Additional observations from a re-analysis of the deposited data

Results flagged for a closer look

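The members also had UMIs in cells that the limits on genes and mitochondrial share left out, and that entered the comparisons only in the alternative with no limits. In the 6266 WT cells with fewer than 200 genes, S100a9 was at 342 CPM (95% CI 313 to 373) and Retnlg at 168 CPM (148 to 190), beside 149 and 38.3 CPM in WT B cells. In the 2638 WT cells over the mitochondrial limit S100a9 was at 344 CPM (320.0 to 370.0) and Retnlg at 195 CPM (177 to 215). In the pool S100a9 was at 19.1 CPM (7.67 to 39.3) in 915 cells with few genes, from 7 UMIs, and at 174 CPM (148 to 203) in 320 cells over the mitochondrial limit, from 159 UMIs in 15 cells, beside 4.44 CPM in its B cells. All of these lie above the level that 3 UMIs would give. Camp had 0 UMIs in each of these 4 groups of cells.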

How the results depend on the processing

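With 1 library per condition no replicate could be left out, and nothing here measures the spread between mice. No paired analysis was possible because each condition has 1 library. A count was taken as kept when within 1.5 times the main one, and a share or level when inside the main value's 95% interval. By this, 72 of 126 values under alternatives kept and 54 moved, and the cause was not tested. Members at least 2-fold lower in neutrophils were 4 in place of 2 without the cells rich in Camp, Ngp and Ltf. That number includes Ngp, whose UMIs in the pool's neutrophils all lay in the cells taken out, so it is no support for a direction. Outside neutrophils members passed the UMI minimum mostly through the WT library, so that these counts are no support for a direction. In B cells they were 5 of 5 tested in place of 2 of 2 without integration, with at least 20 UMIs and with mixed clusters kept, and 0 of 0 after thinning. In endothelial cells they were 2 of 4 in place of 6 of 6 without doublets, 3 of 4 without integration and 3 of 3 after thinning. In monocytes they were 2 of 3 in place of 5 of 5 with classes from marker UMIs, with and without limits on cells, and 2 of 2 after thinning. In T cells they were 3 of 4 in place of 4 of 4 at a mitochondrial limit of 10% and with classes from marker UMIs, with and without limits on cells, 3 of 3 thinned and 6 of 6 with at least 20 UMIs. The early share in WT neutrophils (8.85%) was 9.52% with the members kept in the clustering, 8.43% thinned, 21.3% with Mmp8 as early, 8.36% without the cells rich in Camp, Ngp and Ltf, and 0.790% without Lcn2. In the pool (31.7%) it was 20.7% thinned, 39.0% with Mmp8 as early, 13.2% without those cells and 20.6% without Lcn2. The summed level in WT monocytes (1.23% of neutrophils) was 1.33% at a mitochondrial limit of 10%, 0.352% with no limits on cells and classes from marker UMIs, and 0.781% without doublets. It was 0.355% with classes from marker UMIs alone, 1.09% with the members kept and 1.09% thinned, and 0.963% without integration. It was 0.213% without monocytes holding a UMI of Csf3r, Cxcr2, Il1r2, Ly6g or Trem1, and 1.27% with mixed clusters kept. In the pool (0.471%) these settings gave, in the order 10% limit, no limits with marker UMIs, doublets, marker UMIs alone, members kept, thinned, no integration, Csf3r to Trem1 and mixed clusters, 0.438%, 0.224%, 0.418%, 0.223%, 0.407%, 0.361%, 0.499%, 0.0743% and 0.505%, and 0.526% without the cells rich in Camp, Ngp and Ltf. The summed level in B, T and endothelial cells of the WT library (1.1%) was 1.39% at the 10% limit, 0.739% with no limits and marker UMIs, 0.388% without doublets, 0.746% with marker UMIs alone, 0.669% with the members kept, 0.762% without integration, 0.996% thinned, 0.289% without cells of 3 or more alarmin UMIs, 1.43% with mixed clusters kept and 0.983% without Mmp9. In the pool (0.213%) it was 0.264% without integration, 0.168% without cells of 3 or more alarmin UMIs, 0.289% with mixed clusters kept, 0.0718% without Mmp9 and 0.238% without the cells rich in Camp, Ngp and Ltf. Over the 10 alternatives Retnlg in neutrophils ran from -2.10 to -1.85 on the log2 scale and Mmp8 from -2.37 to -1.96. Ngp ran from -5.52, without the cells rich in Camp, Ngp and Ltf, to 3.33. Over the 8 alternatives that gave a value, Camp ran from 1.97 to 3.82 and Ltf from 3.10 to 3.94.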
